A study of Mus musculus with 267 samples.

Results

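Growth factor genes of macrophages that take part in tissue repair were read here from chromatin. The 7 genes are Igf1, Hbegf, Vegfa, Pdgfa, Pdgfb and Tgfb1, which encode secreted ligands, and Flt1, which encodes a receptor. Their regions were taken by position: every region of the deposited tag tables, and every peak of the factor peak lists, whose centre lay within 50 kb of the start of 1 of these genes (mm10, GENCODE vM21). Distances are given in bp from that start to the region centre, negative upstream. In the time course of C57BL/6J, 101 of 77955 regions qualified: 15 for Igf1, 13 for Hbegf, 12 for Vegfa, 13 for Pdgfa, 15 for Pdgfb, 21 for Tgfb1 and 12 for Flt1. The strain tables held 91 of 67742 regions for C57BL/6J, 67 of 54022 for BALB/cJ, 78 of 68932 for NOD/ShiLtJ, 74 of 60175 for PWK/PhJ and 60 of 54755 for SPRET/EiJ. The table of EGR2 sites held 52 of 30675, and the tables of the Egr2 genotypes 8 of 4677. Position alone ties a region to a gene, and many regions near Tgfb1, Pdgfa and Hbegf lie at or inside other genes. The regions upstream of Flt1 from −22135 to −34118 in C57BL/6J are nearer to the start of Gm43156.

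ChIP-seq was done in bone marrow-derived macrophages (BMDMs), which were grown from marrow with M-CSF and left untreated (basal) or given 20 ng/mL IL-4 for 1, 6 or 24 h. Young adult female mice of the 5 inbred strains named above were used, and the strains are called C57, BALB, NOD, PWK and SPRET from here on. The 1-hour and 6-hour times were measured only in C57. In a further pair of groups, Egr2 fl/fl mice, whose Egr2 gene carries loxP sites but is intact, were compared with LyzM-Cre Egr2 fl/fl mice, in which a Cre driven by the lysozyme M promoter deletes Egr2 in myeloid cells. Both genotypes were measured basally and at 24 h, and both carry the floxed allele. Of the 267 samples, 32 were of H3K27ac, 35 of RNA polymerase II (Pol II), 28 of H3K4me2, 20 of H3K4me3, 24 of EGR2, 32 of STAT6, 28 of PPARg, 28 of PU.1, 28 of C/EBPb and 12 of input. The 155 libraries with values held 4691644 to 29050468 tags (median 12936233). Every level below is a count of tags per 10000000 tags of the library, called tags, so 1 tag stood for 0.469 to 2.91 reads. The labels do not say whether replicates came from separate animals, so p-values measure the spread between these libraries, which may be technical. In cultures of many cells, a mark gained by more cells and a mark gained more strongly per cell cannot be told apart. The deletion of Egr2 could not be checked, because tags over chromatin do not read its transcript and the deleted interval is not marked in the tables.

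IGF-1 and HB-EGF act on cell growth and survival through receptor tyrosine kinases, the PDGF chains recruit mesenchymal cells, VEGF-A drives the growth of vessels, and TGF-b1 acts on matrix production and on immune cells. Flt1 encodes VEGFR1, a receptor of VEGF-A that monocytes and macrophages carry and that is also made in a soluble form which captures the ligand. Macrophages are a known source of these ligands in wounds. H3K27ac marks active promoters and enhancers, H3K4me3 marks promoters, H3K4me2 marks both, and Pol II marks transcribed DNA. IL-4 activates STAT6, which is phosphorylated at its receptor. EGR2 and PPARg are factors whose genes IL-4 is known to induce in macrophages, and PU.1 and C/EBPb bind much of the macrophage enhancer repertoire.

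The label of the cells was checked with H3K27ac at marker starts in C57. All 8 macrophage markers looked for had a region at their start, and their summed H3K27ac was 4328 to 4522 tags basally and 1876 to 1920 tags at 24 h. Of 5 markers of IL-4-activated macrophages 3 had a region, summing to 302 to 360.1 tags basally and 404 to 503 at 24 h. These 3 did not move together. Mean H3K27ac at Arg1 went from 62.515 tags basally to 190.85 at 24 h, and at Ccl24 from 16.475 to 31.98. At Mrc1 it went the other way, from 252.005 to 230.55. None of 4 T cell or 3 neutrophil markers had a region. The B cell gene Ms4a1 had a mean of 88.1 tags basally and 42.1 at 24 h. Of 4 fibroblast markers 1 had one, Col1a1, at 2.55 tags or below. The endothelial genes Cdh5 and Tek had none. Pecam1 and Kdr, which are not restricted to endothelium, summed to 404 to 685 tags basally and 230.4 to 295 at 24 h. The part of the falling macrophage sum in the lower values at Pdgfb and Tgfb1 was not tested.

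Across the time course, Flt1 and Hbegf gained H3K27ac at their starts, Pdgfb lost it (a call that depended on the scaling), and no start region of Igf1, Vegfa, Pdgfa or Tgfb1 passed the test at any time. Regions were tested with limma on log2(tags + 1) over all 77955 regions, with a Benjamini-Hochberg adjusted p under 0.05 as the threshold. At 1 h, 1 member region was higher and 6 were lower, against 1.37% and 8.36% of all regions. At 6 h, 6 were higher and 1 lower, against 2.67% and 2.46%. At 24 h, 3 were higher and 1 lower, against 1.13% and 0.327%. With the replicate number as a block, more member regions were called at each time, as counted at the end. These 3 contrasts share their basal libraries. No member region was called at 1 h without basal replicate 2, at 6 h without 6-hour replicate 2, or at 24 h without 24-hour replicate 1. At an unadjusted p under 0.05 the member regions numbered 32, 26 and 29. The shares of all regions at that threshold are not given, so these counts are not read as a result about the members. The median region of the whole table differed from basal by −0.63, −0.14 and −0.22 on the log2 scale at 1, 6 and 24 h. After scaling libraries by their median ratio it differed by 0.09, 0.04 and 0.05. The share of a library's H3K27ac tags in regions was 69.7% and 63.8% basally and 44.0% and 20.5% at 1 h. It was 51.0% and 50.2% at 6 h, and 46.4% and 41.2% at 24 h. Lower values at each later time are read against these shifts.

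**Figure D1:**
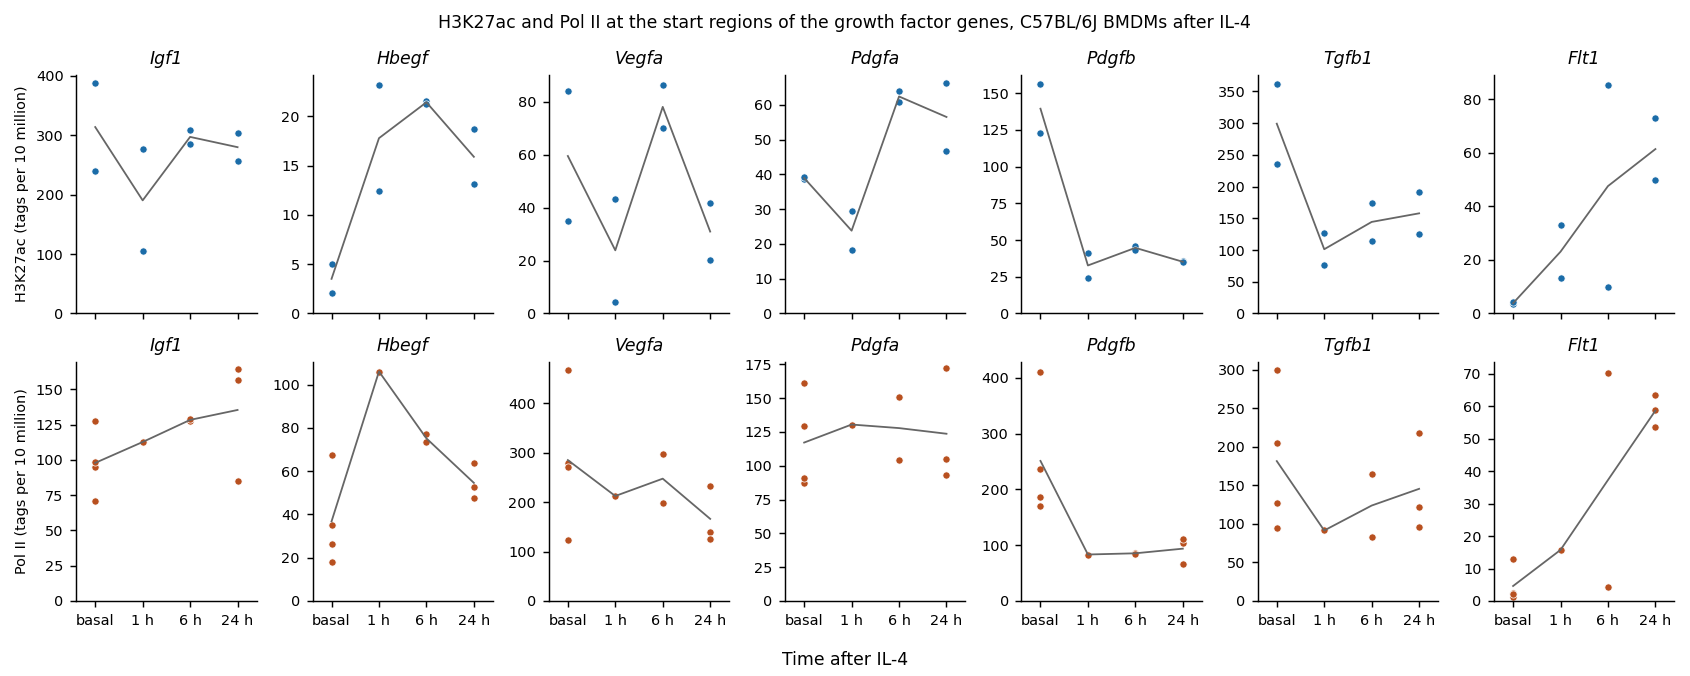
H3K27ac (top) and Pol II (bottom) at the start region of each of the 7 genes in C57 BMDMs, in tags per 10000000, against time after IL-4. Each point is 1 library and the line joins group means. At Flt1 both 24-hour H3K27ac libraries (73.0 and 49.9) lie above both basal ones (3.39 and 4.28), and at Pdgfb both (35.6 and 34.8) lie below (123 and 156).

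Igf1 was the ligand with the most H3K27ac, and its levels at 24 h were near those at baseline. The start region (centre −59, chr10:87857706-87858706, promoter) held 239 and 388 tags basally, 276 and 105 at 1 h, 286 and 309 at 6 h, and 303 and 257 at 24 h. The groups overlapped, and the log2 fold at 24 h was −0.13 with an adjusted p of 0.92. The region 1985 bp downstream, at the start of another Igf1 transcript, was the strongest of the locus. It held 748 and 695 tags basally, 1301 and 252 at 1 h, 1357 and 761 at 6 h, and 748 and 538 at 24 h. The 1-hour libraries differed by over 1000 tags there, and no time passed the test. The direction at both Igf1 regions at 24 h turned with the scaling, since the median ratio gave 0.19 at −59 and 0.13 at 1985. Pol II at 1985 was 331 to 507 tags in 4 basal libraries, 762 in the single library at 1 h, 734 and 566 at 6 h, and 434 to 644 in 3 libraries at 24 h. The enhancer regions at −28127, −27448, −25965 and −15621 each held mean H3K27ac of 416 to 609 tags basally and 345 to 490.4 at 24 h.

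Hbegf, whose product is made as a membrane protein and shed, had little H3K27ac at its start and gained it within 1 h. Its start region (centre 29, chr18:36515276-36516276, promoter) held 2.04 and 4.99 tags basally, 23.2 and 12.4 at 1 h, 21.6 and 21.3 at 6 h, and 18.7 and 13.1 at 24 h. Every library after IL-4 lay above both basal libraries. The log2 fold was 2.08 ± 0.60 (SE) at 1 h, with an adjusted p of 0.040, and 2.39 ± 0.60 at 6 h, with an adjusted p of 0.029. At 24 h it was 1.97 ± 0.60 with an adjusted p of 0.11, which did not pass. Both rises passed after median-ratio scaling, but each rested on single libraries. With 1 of the 8 libraries left out at a time, the 1-hour call was lost without either basal library, 1-hour replicate 1 or either 6-hour library (log2 fold 1.59 to 2.57), and the 6-hour call without basal replicate 1 or either 6-hour library (1.91 to 2.88). Pol II at the Hbegf start was 34.9, 26.5, 67.5 and 18.2 tags basally, 106 in the 1-hour library, 73.4 and 77.0 at 6 h, and 52.7, 63.7 and 47.5 at 24 h, with overlap between basal and 24 h.

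Within the Hbegf introns, H3K27ac had means of 8.47 tags at 2800, 18.5 at 3427 and 16.1 at 3684 basally. The means were 30.2, 52.0 and 48.2 tags at 24 h. The regions at 3427 and 3684 overlap and share reads. The strongest region within 50 kb, at −44612, lies at the start of Ankhd1 and held a mean of 424 tags basally and 259 at 24 h, so position does not tie it to Hbegf.

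Without the replicate block, Vegfa showed no call in either direction. Its start region (centre 23, chr17:46031846-46032846, promoter) held 84.1 and 34.9 tags of H3K27ac basally, 43.3 and 4.47 at 1 h, 86.2 and 70.0 at 6 h, and 41.6 and 20.4 at 24 h, so that each later group overlapped the basal range. Pol II there was 466, 279, 271 and 124 tags basally and 139, 233 and 126 at 24 h (log2 fold −0.68, adjusted p 0.70). With the replicate number as a block, 4 Vegfa regions were lower in Pol II at 24 h, at 1250, 2612, 4531 and 18601. The region at 1250 in intron 1 had a log2 fold of −1.32 with an adjusted p of 0.024. The C57 Pol II libraries were taken as pairs for this, though deviations of same-numbered ones correlated at only 0.191 to 0.395. A region at −37824 was picked out after its values were seen. It had mean H3K27ac of 3.41 tags basally, 31.9 at 1 h, 42.1 at 6 h and 5.66 at 24 h, and the adjusted p at 6 h was 0.10.

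The 2 PDGF chains differed in what was recorded at their loci. At the Pdgfa start (centre −277, chr5:138997147-138998147) H3K27ac was 38.7 and 39.2 tags basally, 29.4 and 18.2 at 1 h, 63.9 and 60.9 at 6 h, and 46.7 and 66.3 at 24 h. The log2 fold at 24 h was 0.50 with an adjusted p of 0.63. Within the gene, the regions at 4204 and 6174 in intron 2 were higher at 6 h, by 2.38 and 2.30 on the log2 scale (adjusted p 0.041 and 0.040), from means of 9.27 and 0.36 tags to 45.8 and 5.43. Both calls were lost without basal replicate 2 or either 6-hour library, and that at 6174 also without basal replicate 1. Both are nearer to the start of 6330403L08Rik than to that of Pdgfa, and both calls were lost with edgeR.

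Pdgfb was lower after IL-4 from the first hour on. The start region (centre −14, chr15:80014491-80015491, promoter) held 123 and 156 tags of H3K27ac basally, 41.0 and 24.4 at 1 h, 46.2 and 43.2 at 6 h, and 35.6 and 34.8 at 24 h. Both basal libraries lay above all 6 later ones. The log2 fold at 1 h was −2.09 ± 0.54 with an adjusted p of 0.027, and at 24 h it was −1.95 ± 0.54 with an adjusted p of 0.077. Upstream, the strongest region (centre −15622) held 180.5 and 329 tags basally, 21.6 and 42.0 at 1 h, 53.1 and 80.9 at 6 h, and 107 and 128 at 24 h. It fell by 2.97 ± 0.57 on the log2 scale at 1 h (adjusted p 0.012), and the regions at −20070 and −9472 also passed at 1 h (log2 fold −2.61 and −2.52). All 4 calls of Pdgfb at 1 h were lost after median-ratio scaling, where the log2 fold was −1.30 at −14 (adjusted p 0.10) and −2.17 at −15622 (adjusted p 0.052). All 4 were also lost without basal replicate 2, −9472 and −14 without either 6-hour library, and −14 also without basal replicate 1 or 1-hour replicate 2, where its log2 fold over the left-out libraries was −2.45 to −1.73. Pol II at −14 was 186, 170.1, 411 and 237 tags basally, 83.3 at 1 h, 86.5 and 84.3 at 6 h, and 66.7, 104 and 110.3 at 24 h, again with no overlap. The log2 fold of Pol II at 24 h was −1.35 ± 0.36, with an adjusted p of 0.11 without the block and 0.010 with it.

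Tgfb1 held high H3K27ac, with lower values at each later time and no call at its start. The start region (centre −95, chr7:25686407-25687407, promoter) held 362 and 236 tags basally, 127 and 75.7 at 1 h, 114 and 175 at 6 h, and 191 and 125 at 24 h. All later libraries lay below both basal ones, the log2 fold at 24 h was −0.92, and the adjusted p was 0.41. The share of tags in regions was lower at each later time too, and its part in these lower values was not tested. The calls near Tgfb1 fell in neighbouring genes. Regions at −37044 and −35482, in intron 1 of Bckdha, were lower at 1 h by −1.99 and −2.76 on the log2 scale (adjusted p 0.044 and 0.013), and a region at 24961 in the 3′ UTR of Ccdc97 fell from a mean of 63.2 to 9.59 tags at 24 h (log2 fold −2.57 ± 0.57, adjusted p 0.028). The 24-hour call was lost after median-ratio scaling (adjusted p 0.054) and the 1-hour call at −37044 was lost as well, while that at −35482 was kept. Without basal replicate 2 all 3 were lost. The call at −37044 was lost with 6 of the 8 libraries left out in turn and that at 24961 with 5 of them, namely basal replicate 2 and the 6-hour and 24-hour libraries.

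Flt1, the receptor of the group, had the largest rise at a start region. The start region (centre 171, chr5:147725340-147726340, exon 1 and its flank) held 3.39 and 4.28 tags of H3K27ac basally, 13.1 and 33.1 at 1 h, 10.0 and 85.2 at 6 h, and 73.0 and 49.9 at 24 h. Every library after IL-4 lay above both basal ones, and the 6-hour libraries lay far apart. The log2 fold was 2.19 ± 0.76 at 1 h (adjusted p 0.070), 2.68 ± 0.76 at 6 h (adjusted p 0.048) and 3.67 ± 0.76 at 24 h (adjusted p 0.021). Pol II there was 2.5, 12.8, 1.07 and 2.03 tags basally, 15.7 at 1 h, 4.38 and 70.2 at 6 h, and 63.4, 53.7 and 59.0 at 24 h. The 3 libraries at 24 h lay above all basal ones, with a log2 fold of 3.83 ± 0.71 and an adjusted p of 0.018.

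Of 12 Flt1 regions, 3 were called higher in H3K27ac at 24 h: the start, a region overlapping it at −456 (log2 fold 3.01 ± 0.68, adjusted p 0.032), and an intergenic one at −25779 (3.56 ± 0.75, adjusted p 0.022). The last is nearer to the start of Gm43156 than to that of Flt1. These 3 made up every member region called higher at 24 h, they also passed with median-ratio scaling, edgeR and DESeq2, and the median log2 fold over the 12 Flt1 regions was 1.92 against −0.22 over all regions. Without 24-hour replicate 1, no member region was called, and the log2 fold at the start was 3.4. The call at −25779 was also lost without basal replicate 1, and that at −456 without any 1 of the basal or 24-hour libraries. At 6 h the same 3 regions passed, and all 3 calls were lost after median-ratio scaling, with 0.076 as the adjusted p at the start, and without 6-hour replicate 2 or basal replicate 1. The start was also lost without basal replicate 2 or either 1-hour library, −456 without basal replicate 2 or 6-hour replicate 1, and −25779 without 6-hour replicate 1.

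In Pol II, 7 member regions were higher at 24 h against 0.503% of all regions, none was lower against 0.174%, and all 7 belonged to Flt1. They included −25779 (log2 fold 3.43), −456 (4.55), the start and 4 regions in introns 1 and 3 at 4394, 18310, 24811 and 27699 (2.83 to 3.08). H3K27ac means at those 4 intronic regions were at most 12.9 tags at any time. Without 24-hour replicate 1 no member region was called in Pol II. The call at the Flt1 start was also lost without 24-hour replicate 2 and without basal replicate 3 or 4. With the replicate block 16 member regions were called, 8 of them at Flt1. The shares of all regions called with the block, at 24 h and at 6 h, are not given. At 6 h, only a Pdgfb region at 1861 passed, lower by −2.69 on the log2 scale (adjusted p 0.049), against 0.428% of all regions higher and 0.137% lower, and 3 passed with the block. The region at 1861 is nearer to the start of Gm41361, and its call was lost with 7 of 10 libraries left out in turn.

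The strongest H3K27ac near Flt1 was not at the start but in a cluster upstream. The region at −32307 held 341 and 220 tags basally, 427 and 243 at 1 h, 333 and 451 at 6 h, and 479 and 386 at 24 h, with no call (log2 fold 0.65 at 24 h, adjusted p 0.56). Its neighbour at −34113 had means of 30.3, 33.8, 81.8 and 154 tags at the 4 times, with a log2 fold of 2.38 at 24 h (adjusted p 0.088). A region at −22152 had means of 33.9, 37.1, 54.9 and 119 tags (log2 fold 1.78 at 24 h, adjusted p 0.13), and one at −16675 had means of 102, 71.8, 96.8 and 115. A region at −33117 overlaps both −32307 and −34113 and shares reads with them. The highest of these means at 24 h were in regions that were already acetylated basally, while the largest folds were in regions with under 5 tags basally.

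**Figure D2:**
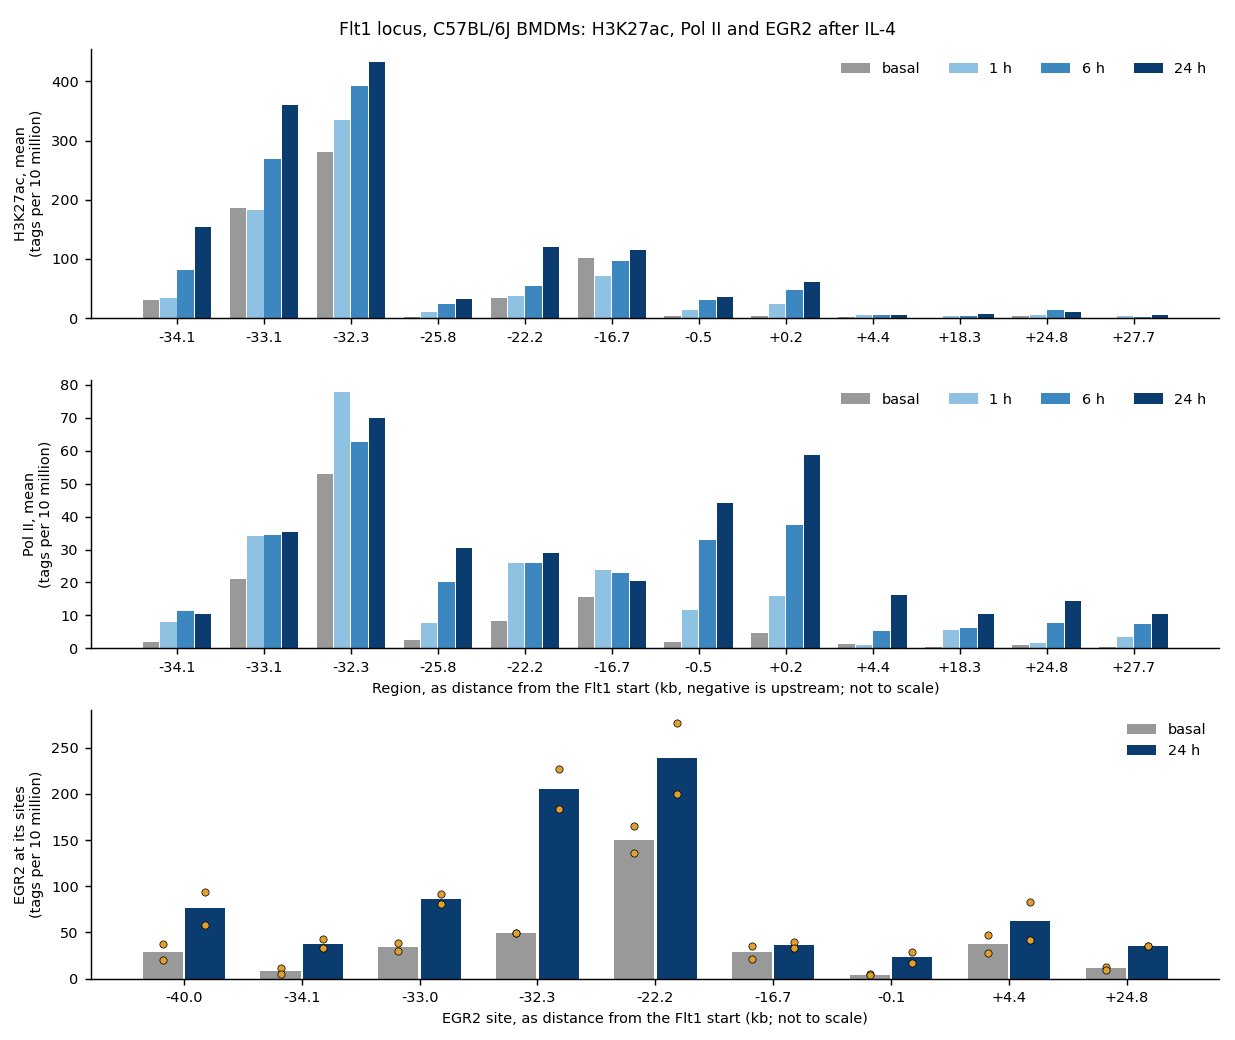
Mean H3K27ac (top) and Pol II (middle) of the 12 Flt1 regions at 4 times, and EGR2 at the 9 Flt1 sites basally and at 24 h (bottom, bars for means and points for the 2 libraries), in C57 BMDMs and in tags per 10000000. Positions along the axis are distances from the start and are not to scale. The highest H3K27ac is at −32307 (432 tags at 24 h), and the start goes from 3.84 to 61.4.

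Sequences near Flt1 are shown because all member regions called higher at 24 h in the C57 time course lay there. The letters below let them be set beside the factor values. The EGR2 sites at −32277, −22186 and −34138 lie in regions without an H3K27ac call in that time course. The called region at −25779 held no EGR2 site and is not shown. The sequences are 200 bases of mm10 around the centre of an EGR2 site, plus strand. For the promoter they are the 250 bases before the start on the strand of the gene, from RefSeq (GRCm38.p6). Capitals mark matches, on either strand, of GTGGGNG (the core of the EGR motif GCGTGGGCG, which contains it), TTCNNNNGAA (the STAT motif), AGGAAGT (PU.1), TTGCNNAA (C/EBP) and TGANTCA (AP-1). Matches are descriptions and not binding sites. Of the 7 genes 5 had an entry in the promoter table, and Hbegf and Pdgfb had none.
Flt1 −32277, chr5:147758189-147758388, the EGR2 site in the strongest H3K27ac region: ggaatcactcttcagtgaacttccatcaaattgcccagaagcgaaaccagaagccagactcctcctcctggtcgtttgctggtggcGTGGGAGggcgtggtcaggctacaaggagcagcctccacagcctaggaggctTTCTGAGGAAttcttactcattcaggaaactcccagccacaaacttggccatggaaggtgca
Flt1 −22186, chr5:147748098-147748297, the Flt1 site with the most EGR2: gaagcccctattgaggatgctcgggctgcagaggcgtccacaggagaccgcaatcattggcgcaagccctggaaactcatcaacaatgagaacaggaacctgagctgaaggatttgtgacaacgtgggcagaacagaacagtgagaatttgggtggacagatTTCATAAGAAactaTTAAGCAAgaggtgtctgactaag
Flt1 −34138, chr5:147760050-147760249, the site followed in the Egr2 genotypes: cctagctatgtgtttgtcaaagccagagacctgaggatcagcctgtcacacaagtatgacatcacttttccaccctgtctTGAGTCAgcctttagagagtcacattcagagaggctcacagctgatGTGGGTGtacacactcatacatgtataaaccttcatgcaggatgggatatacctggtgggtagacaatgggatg
Flt1 24774, chr5:147701138-147701337, the intronic site followed in the Egr2 genotypes: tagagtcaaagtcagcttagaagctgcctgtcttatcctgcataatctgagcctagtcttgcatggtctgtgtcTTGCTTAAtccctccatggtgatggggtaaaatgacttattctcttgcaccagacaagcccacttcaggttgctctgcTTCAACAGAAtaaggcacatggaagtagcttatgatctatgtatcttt
Flt1 promoter, chr5:147726012-147726261, minus strand, next to the region with the largest rise: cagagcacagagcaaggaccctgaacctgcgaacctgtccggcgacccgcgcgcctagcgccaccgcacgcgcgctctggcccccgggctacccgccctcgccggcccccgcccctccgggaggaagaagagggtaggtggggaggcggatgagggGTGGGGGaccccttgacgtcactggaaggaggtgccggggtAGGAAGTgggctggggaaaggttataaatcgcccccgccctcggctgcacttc
The −32277 site held the EGR core GTGGGAG at −13 to −7 from its centre and TTCTGAGGAA at 39 to 48. The promoter held GTGGGGG at −94 to −88 and AGGAAGT at −53 to −47 from the start. Over the 9 EGR2 sites of Flt1, 6 held the EGR core, none the full motif, 3 the STAT motif, 3 the C/EBP motif, and 1 each the PU.1 and AP-1 motifs. Over the 52 member sites the EGR core was in 57.7%, against 50.3% of all EGR2 sites and 28.1% of 32851 promoters, and the STAT motif was in 15.4%, against 6.6% and 5.9%. The full motif was in 5.8% of member sites, 1.4% of all EGR2 sites and 0.5% of promoters.

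The rise at Flt1 was next followed in the 5 strains, each of which has its own table, regions and fit. Without the replicate number as a block, Flt1 was the gene with the member calls in H3K27ac at 24 h, 3 in BALB and 1 each in PWK and SPRET. No other member region was then called in any strain. The block gave more member calls, counted at the end. The calls without it stood against 0% of all regions higher in C57, 1.6% in BALB, 0.0566% in NOD, 0.487% in PWK and 0.994% in SPRET. The shares of all regions lower were 0%, 0.653%, 0%, 0.0482% and 0.192%. C57, with 2 libraries in each group and no call among 67742 regions by limma, had 30 member regions at an unadjusted p under 0.05, against 13 in BALB, 13 in NOD, 14 in PWK and 11 in SPRET. The shares of all regions at the unadjusted threshold are not given, so these counts are not read as a result about the members. The C57 libraries are those of the time course at baseline and 24 h, where the fit over all times made the calls given above.

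The Flt1 start had its lowest values in basal libraries in each strain with a region there. In C57 (centre 274) H3K27ac was 5.43 and 4.28 tags basally and 73.8 and 55.1 at 24 h. In BALB (centre 219) it was 3.67 and 2.98 basally and 30.1 and 31.9 at 24 h, with a log2 fold of 2.89 ± 0.56 and an adjusted p of 8.3e-05. In NOD (centre 225) it was 4.16 and 1.59 basally and 57.1 and 58.5 at 24 h (log2 fold 4.01, adjusted p 0.054). In PWK (centre 234) it was 1.72 and 5.48 basally and 25.6 and 60.1 at 24 h (3.26 ± 0.68, adjusted p 0.044). No library at 24 h overlapped the basal range in these 4 strains, and SPRET had no region at the Flt1 start. The PWK call was lost after median-ratio scaling (adjusted p 0.15) and without either 24-hour library. Levels of different strains come from tables normalized apart, and the folds of the strains were not tested against each other.

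The Flt1 region near −25806, which is nearer to the start of Gm43156, was present in all 5 strains. In BALB (−25806) it held 0.73 and 4.77 tags basally and 42.2 and 25.2 at 24 h, with a log2 fold of 3.41 ± 0.57. In SPRET (−25810) it held 11.1 and 7.90 tags basally and 44.1 and 50.6 at 24 h (2.22 ± 0.45, adjusted p 0.020), a call that was lost without any single library. With a pseudocount of 1, the fold of the means was 10.7 in C57, 9.26 in BALB, 5.03 in NOD, 7.98 in PWK and 4.60 in SPRET. The upstream region at −32270 held 325 and 214 tags in C57 basally and 464 and 380.0 at 24 h, and its PWK counterpart at −32279 held 137 and 198 basally and 463 and 323 at 24 h.

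Pol II gave calls at Flt1 in 3 strains. The member regions called higher numbered 6 for C57, 3 for BALB, 6 for PWK and none for NOD or SPRET, against 0.223%, 0.663%, 1.44%, 0% and 0.782% of all regions. None was called lower, against 0.096%, 0.0444%, 0.281%, 0% and 0.27%. All C57 and BALB calls and 3 of the PWK calls were at Flt1. At the Flt1 start, Pol II in BALB was 3.19, 1.78 and 1.09 tags basally and 53.3 and 35.7 at 24 h (log2 fold 3.95, adjusted p 1.2e-05). In NOD it was 3.24 and 5.48 basally and 70.7 and 75.6 at 24 h (3.82, adjusted p 0.092), and in PWK 2.12, 1.40 and 7.58 basally and 17.98, 42.0 and 85.5 at 24 h (3.37, adjusted p 0.0097). For Pol II in C57, PWK and SPRET, same-numbered libraries were taken as pairs. With the replicate block the member calls numbered 8, 24 and 9 in those strains, in place of 6, 6 and 0. The shares of all regions called with the block are not given. In SPRET the member calls with the block included the Flt1 region at −25810 (log2 fold 2.15, adjusted p 0.0012).

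**Figure D3:**
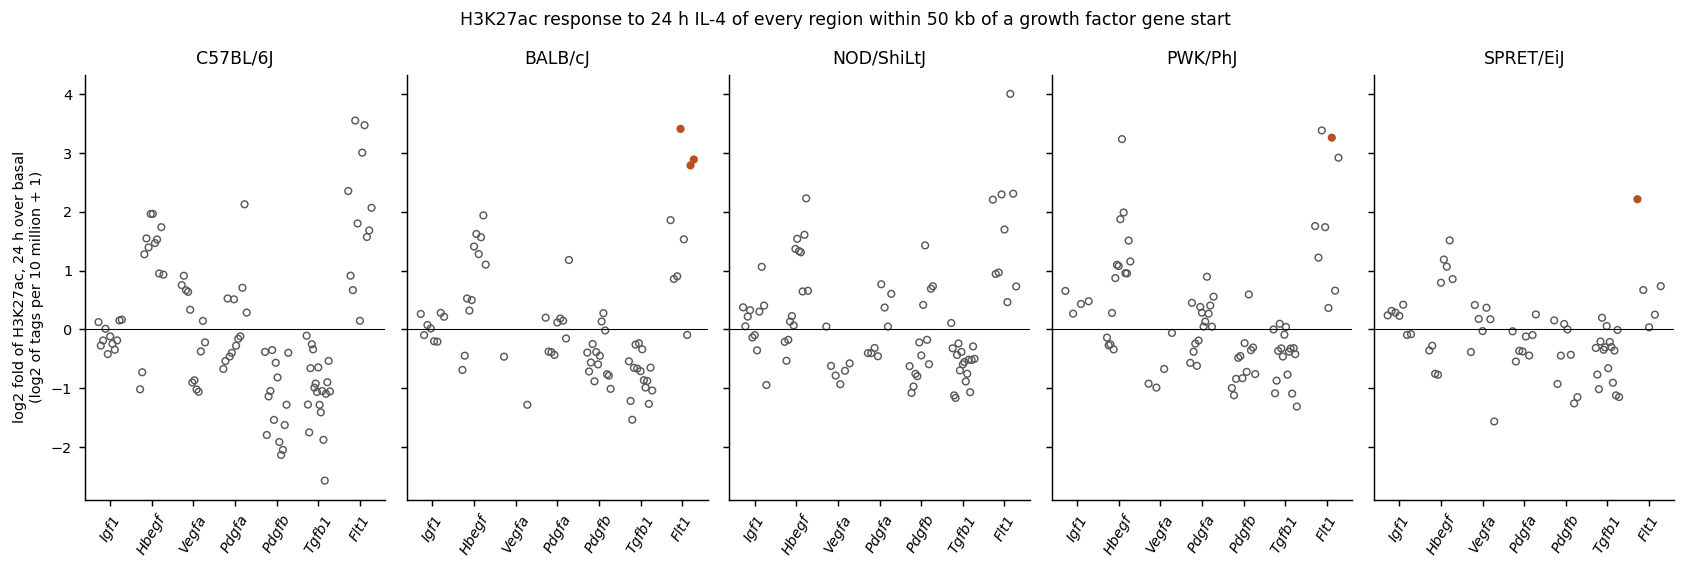
Log2 fold of H3K27ac at 24 h over basal, on the scale of log2(tags + 1), for every region within 50 kb of a start in each of the 5 strains. Each circle is a region, filled where limma called it without the replicate block. The filled circles are all at Flt1, 3 in BALB, 1 in PWK and 1 in SPRET.

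Among the ligands, Hbegf had higher H3K27ac means at 24 h in each strain, at low levels. Mean H3K27ac at its start went from 3.52 to 15.9 tags in C57, 4.72 to 13.9 in BALB, 6.14 to 16.8 in NOD, 7.89 to 17.3 in PWK and 8.19 to 19.1 in SPRET. Libraries did not overlap in any strain, and without the replicate block no strain gave a call in H3K27ac. In Pol II the PWK start region passed, with 28.2, 32.9 and 21.97 tags basally and 59.0, 103 and 81.2 at 24 h (log2 fold 1.5 ± 0.31, adjusted p 0.022). An intronic region of Hbegf at 2823 passed in PWK too (1.97, adjusted p 0.047). In SPRET, Pol II at the Hbegf start had a log2 fold of 0.81 that passed only with the block (adjusted p 0.013).

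The Pdgfb start had no overlap of H3K27ac libraries in C57 and SPRET and overlapped in the other strains. H3K27ac at its start in C57 was 126 and 166 tags basally and 37.4 and 38.1 at 24 h. It was 223 and 136 basally and 138 and 75.8 at 24 h in BALB, 71.5 and 138 and then 62.9 and 123 in NOD, 73.8 and 199.7 and then 87.5 and 103 in PWK, and 71.8 and 92.2 and then 27.3 and 40.9 in SPRET. No strain gave a call without the replicate block, and the strains were not tested against each other. Pol II at the Pdgfb start in SPRET was 187, 188 and 121 tags basally and 74.4, 123 and 65.6 at 24 h, with a log2 fold of −0.93 that passed only with the block (adjusted p 0.0025).

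Without the replicate block, the other ligands gave no H3K27ac call at their starts in any strain. Mean H3K27ac at the Tgfb1 start went from 284 to 149.6 tags in C57, 256 to 230.1 in BALB, 246 to 189.9 in NOD, 259 to 186 in PWK and 332 to 269 in SPRET. At the Vegfa start it went from 58.9 to 30.97 in C57, 22.5 to 9.2 in BALB, 37.4 to 17.2 in NOD, 31.4 to 14.7 in PWK and 4.7 to 6.4 in SPRET, the lowest level of the 5. At the Pdgfa start it went from 39.7 to 58.1, 25.4 to 30.8, 38.0 to 63.4, 31.4 to 41.4 and 15.6 to 14 in the same order. Igf1 had a start region in C57, BALB and NOD, with means of 308 and 276, 235 and 303, and 425 and 548 tags. In PWK an Igf1 enhancer region at −27420 passed in Pol II (log2 fold 1.26, adjusted p 0.042).

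With the replicate number as a block both methylation marks gave member calls, counted at the end. Without it, neither gave a member call in any strain by limma. The shares of all regions called were 0.236% in C57, 0.0111% in BALB, 0.189% in NOD, 0.314% in PWK and 0% in SPRET for H3K4me2, and 0%, 0%, 0.0203%, 0.0349% and 0% for H3K4me3. H3K4me3 at the Flt1 start nonetheless had means of 144 tags basally and 534 at 24 h for C57, 98.6 and 459 for BALB, 123 and 406 for NOD, and 110 and 361 for PWK, with adjusted p values of 0.13 to 0.77. Basal H3K4me3 was thus present at the Flt1 start where the H3K27ac means were at most 4.86 tags.

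A rule of size, adapted from the study's methods, was counted beside the tests. The study called a region where both H3K27ac and Pol II changed, and here H3K27ac was first counted alone, with a pseudocount added. The rule asks that the group means plus 1 tag differ at least 2.5-fold with at least 16 tags in either group. In H3K27ac, 40 member regions passed. C57 had 8 higher and 9 lower, BALB 8 and 1, NOD 6 and none, PWK 6 and none, and SPRET 2 and none. The shares of all regions that passed upward were 3.46%, 2.84%, 3.24%, 3.1% and 2.64% in that order, and downward 7.55%, 5.13%, 5.14%, 3.01% and 0.939%. The count of falls moved with single libraries. Leaving out 1 library gave 9 to 19 falls in C57 (19 without basal replicate 1 and 16 without 24-hour replicate 2), 1 to 9 in BALB (9 without 24-hour replicate 1 and 4 without basal replicate 1), and up to 4 in NOD, 4 in PWK and 2 in SPRET, while the rises were 6 to 9, 5 to 11, 6 to 8, 6 to 10 and 2 to 3. Of the 30 rises, 19 were at Flt1 and 11 at Hbegf. Of the 10 falls, 6 were at Pdgfb, all in C57, and 4 near Tgfb1. At Flt1 the regions near −34118, −25782 and −22135 and the start recurred in C57, BALB, NOD and PWK, with folds of 3.37 to 4.86 at the first of them and 7.40 to 15.2 at the start. The upstream ones are nearer to the start of Gm43156. With Pol II moving the same way at least 2.5-fold and 8 tags or more in either group, 27 remained: 6 higher and 5 lower in C57, 5 higher in each of BALB, NOD and PWK, and 1 higher in SPRET, against 0.936% higher and 1.14% lower of all C57 regions, 1.48%, 1.29%, 1.32% and 0.873% higher in the other strains, and 0.507%, 0.807%, 0.548% and 0.221% lower in them. The 5 lower in C57 became 1 without Pol II basal replicate 3 and 2 without Pol II 24-hour replicate 1. The 24-hour and basal libraries did not overlap in 63 of 91 member regions of C57, 29 of 67 of BALB, 41 of 78 of NOD, 32 of 74 of PWK and 31 of 60 of SPRET, against 53.65%, 41.84%, 44.21%, 39.82% and 42.13% of all regions.

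EGR2 binding was then set beside these marks. In C57, mean EGR2 was higher at 24 h than basally at 49 of the 52 member sites (94.23%), against 93.71% of all sites. Both 24-hour libraries lay above both basal ones at 28 of 52 (53.85%), against 54.62% of all sites, so the members as a group were near the background. Limma called no site of 30675 at 1, 6 or 24 h, which stands at 0%. The member sites at an unadjusted p under 0.05 numbered 1, 4 and 4, and the shares of all sites at that threshold are not given. After median-ratio scaling only 29 of 52 had a log2 fold above 0 at 24 h, so the general rise depends on the scaling.

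The share of EGR2 sites with separated libraries was highest at Hbegf, Pdgfa and Flt1. The 24-hour libraries lay above the basal ones at 7 of 9 Flt1 sites and 7 of 8 Hbegf sites, 5 of 6 at Pdgfa, 6 of 13 at Tgfb1, 2 of 8 at Pdgfb, 1 of 4 at Vegfa and none of 4 at Igf1. At Flt1 −32277, whose sequence is printed above, EGR2 was 49.6 and 49.7 tags basally and 227 and 183 at 24 h. At −22186 it was 165 and 136 basally and 277 and 199.7 at 24 h, and the log2 fold there was 0.65 before and −0.0041 after median-ratio scaling. At the promoter site, −119, EGR2 was 4.68 and 4.03 basally and 29.2 and 17.3 at 24 h. The intronic site at 24774 held 12.6 and 9.40 basally and 35.5 and 35.5 at 24 h, and the −34138 site 11.2 and 5.37 basally and 42.6 and 32.6 at 24 h. The strongest Hbegf sites were at 18401 (11.2 and 28.2 basally, 77.2 and 105 at 24 h) and at the start, −24 (28.1 and 52.4 basally, 111 and 82.6 at 24 h).

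At 24 h, 2 member sites had higher mean EGR2 than Flt1 −22186, both at Tgfb1 and both with much EGR2 basally. At the Tgfb1 start, −119, EGR2 was 187 and 469 tags basally and 351 and 348 at 24 h, with full overlap. At Tgfb1 20799 it was 96.5 and 243 basally and 375 and 326 at 24 h. Vegfa, with a mean just below that of Flt1 −22186, had 155 and 219 tags basally and 289 and 168 at 24 h at −41731. The 4 Igf1 sites had means of 14.1 to 18.01 tags basally and 17.8 to 22.2 at 24 h, with the lowest median of the 7 genes at 24 h, 19.4 tags.

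**Figure D4:**
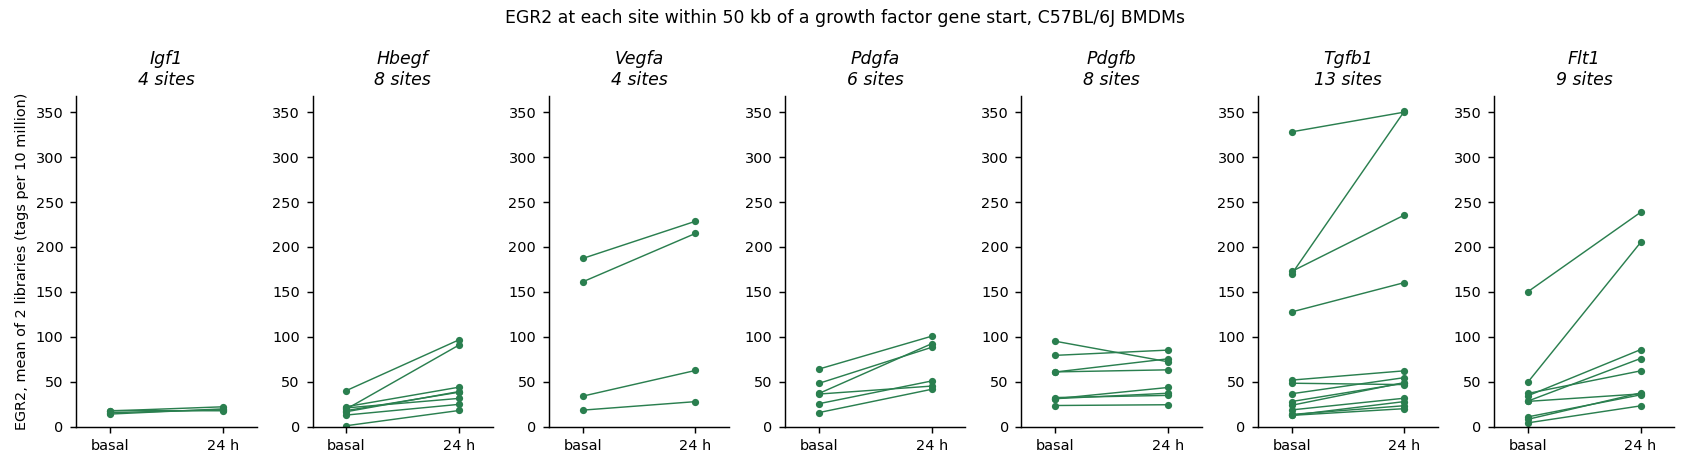
Mean EGR2 of 2 libraries, in tags per 10000000, basally and at 24 h in C57 BMDMs at each of the 52 sites, by gene. Each line is a site. Lines at Igf1 stay below 23 tags, and the steepest at Flt1 goes from 49.7 to 205.

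Peak lists extended the factors to all strains. Each list holds the peaks reproducible between the replicates of a group, so a gained peak has no spread over replicates. A peak was called gained where it overlapped no basal peak of the strain. For EGR2 near the 7 genes, 33 of 51 peaks at 24 h were gained in C57 BMDMs, 12 of 47 for BALB, 5 of 35 for NOD, 20 of 30 for PWK and 35 of 52 for SPRET. These shares, 64.71%, 25.53%, 14.29%, 66.67% and 67.31%, stood beside 72.51%, 36.33%, 11.12%, 67.38% and 72.6% of the whole lists. The lists differ in length, with 8437 EGR2 peaks basally and 29407 at 24 h in C57 and 25341 and 16604 in NOD, and gain depends on this. For STAT6 the gained shares near the 7 genes were 42.37%, 60%, 21.21%, 57.5% and 46.94% in the same order of strains, against 41.18%, 51.47%, 39.53%, 67.17% and 44.35% of the whole lists. For PPARg they were 77.55%, 62.5%, 53.49%, 63.04% and 35.71%, each below the whole list (83.98%, 78.91%, 74.31%, 70.02% and 38.87%). PU.1 had 20.62%, 14.13%, 27.27%, 11.43% and 10.34%, against 18.88%, 14.04%, 23.04%, 11.04% and 8.84%. C/EBPb had 52.5%, 54.55%, 64.58%, 27.03% and 14.29%, against 53.85%, 62.08%, 59.02%, 28.65% and 17.78%. Summed over strains, 105 EGR2, 96 STAT6, 120 PPARg, 77 PU.1 and 84 C/EBPb peaks were gained, which became 34, 55, 27, 78 and 20 with basal and 24-hour lists of equal length. No site of any factor was without a peak basally in every strain and with one at 24 h in all 5.

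At Flt1, EGR2 peaks were present at 24 h in all 5 strains at 4381, −118, −22195, −32284 and −32950. These were 5 of 17 EGR2 sites merged over strains and both conditions, and 8 were in 1 strain alone at 24 h. For STAT6, 4 of 13 sites were in all 5 strains and 5 in 1 alone. The numbers were 5 and 3 of 13 for C/EBPb and 1 and 7 of 12 for PPARg. The shares over the whole lists were not computed. Basally the −118 peak, at the start, was listed in BALB and SPRET only, and the −22195 peak in all 5 strains. STAT6 peaks were present in all 5 strains at 24 h at −16680, −22204, −32302 and −32889, and the one at −32302, over the STAT motif of the sequence printed above, was listed basally in C57 alone. C/EBPb peaks in all 5 strains at 24 h included 24801 and 23368 in intron 1, each listed basally in 2 strains.

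Among the ligands, Hbegf had EGR2 peaks in all 5 strains at 24 h at 18396, 3398 and −40, listed basally in 2, 3 and 3 strains, and STAT6 peaks at 3375 and 43329, listed basally in 2 and 3. Igf1 had no EGR2 peak shared by the 5 strains, while its upstream enhancers had peaks in all 5 at 24 h for C/EBPb (−28066, −27406 and −26020), PPARg (−27960 and −25978) and STAT6 (−27392, −28048 and −25983). Tgfb1 had EGR2 peaks in all 5 strains at 24 h and basally at −6357, −123, 2492 and 20829, and so had Vegfa at 1304 and −41719. Pdgfb had PPARg peaks at −15584 and −20100 in all 5 strains in both conditions. Of the merged EGR2 sites, 3 of 10 at Hbegf, 0 of 7 at Igf1, 4 of 19 at Tgfb1 and 2 of 5 at Vegfa were in all 5 strains at 24 h. In 1 strain alone were 1, 5, 7 and 2 in the same order. For these counts too the shares over the whole lists were not computed, and the lists of the strains differ in length.

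The Egr2 genotypes were compared at 4677 sites that the authors selected as EGR2 peaks induced at 24 h, and 8 lay near a member: 4 at Hbegf, 2 at Flt1 and 1 each at Pdgfa and Tgfb1. The selection held no site at the Flt1 start or near Igf1, Vegfa or Pdgfb, so these could not be compared. EGR2 peaks absent from the C57 basal list were nonetheless present there at 24 h: 4 near Igf1, 2 near Vegfa, 4 near Pdgfb and the one at the Flt1 start. For H3K27ac at 24 h none of the 8 sites passed the test between LyzM-Cre Egr2 fl/fl and Egr2 fl/fl, against 1.41% of all sites higher and 23.2% lower. None passed for a difference in the size of the IL-4 response, and no site of the 4677 did. At Flt1 24774, H3K27ac at 24 h was 25.1 and 23.1 tags in Egr2 fl/fl and 6.23 and 12.2 in LyzM-Cre Egr2 fl/fl, without overlap (log2 fold −1.36 ± 0.51, adjusted p 0.063). At Hbegf 18401 it was 9.05 and 7.06 against 1.04 and 2.32 (log2 fold −1.79 ± 0.64, adjusted p 0.052). At Flt1 −34138 it was 123 and 121 against 114 and 115.5, with a log2 fold of −0.09 ± 0.27 and an adjusted p of 0.85, and this direction turned with the scaling. At Pdgfa −27334 it was 232 and 276 tags in Egr2 fl/fl and lay higher, at 352 and 364, in LyzM-Cre Egr2 fl/fl (log2 fold 0.50 ± 0.20, adjusted p 0.076), and this site passed after median-ratio scaling (1.04, adjusted p 0.0021) and with DESeq2 (1.03, adjusted p 0.00017). Of the 8 sites, 2 had a log2 fold above 0, and 5 after median-ratio scaling, where the median of the 8 went from −0.19 to 0.34. The median of all sites was −0.50 on the log2 scale in this contrast and −0.03 after median-ratio scaling.

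IL-4 itself changed H3K27ac at these sites in both genotypes. In Egr2 fl/fl, 4 sites were higher and 1 lower, against 25.6% and 2.54% of all sites. The Flt1 site at −34138 rose from 21.3 and 26.5 tags to 123 and 121 (log2 fold 2.31 ± 0.27, adjusted p 1.44e-05), and Flt1 24774 (1.69), Hbegf 18401 (1.88) and Hbegf 43256 (1.59) passed as well, while Tgfb1 −36977 fell (−0.80, adjusted p 0.011). In LyzM-Cre Egr2 fl/fl, 2 were higher and 1 lower, against 14.4% and 4.08%: Flt1 −34138 rose from 18.1 and 28.6 tags to 114 and 115.5 (2.29, adjusted p 1.38e-05), Hbegf 43256 rose (1.31) and Tgfb1 −36977 fell (−1.12). Flt1 24774 and Hbegf 18401 passed in Egr2 fl/fl and not in LyzM-Cre Egr2 fl/fl, but the difference of their responses did not pass (adjusted p 0.60 and 0.37).

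C/EBPb was the factor with member calls between genotypes at 24 h, 2 lower against 8.25% of all sites, and none higher against 0%. At Flt1 24774, where the sequence printed above holds TTGCTTAA, C/EBPb was 189 and 87.7 tags in Egr2 fl/fl and 15.6 and 17.2 in LyzM-Cre Egr2 fl/fl (log2 fold −2.90 ± 0.76, adjusted p 0.016). Basally it was 19.5 and 79.2 in Egr2 fl/fl and 13.1 and 20.6 in LyzM-Cre Egr2 fl/fl. At Hbegf 18401 it was 13.3 and 8.12 against 1.36 and 0 (−2.89 ± 1.00, adjusted p 0.047). Over all sites the median log2 fold of C/EBPb was −1.14, and −0.22 after median-ratio scaling, under which neither site passed (Flt1 −1.83 with an adjusted p of 0.15, and Hbegf with an adjusted p of 0.31). The Flt1 call was lost without any 1 of the 4 libraries at 24 h, and the Hbegf call was lost with edgeR. The interaction did not pass at either site (adjusted p 0.89 and 0.98).

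The remaining factors gave no member call between genotypes at 24 h, against 0% of all sites higher and 0.0214% lower for STAT6, 0% either way for PPARg, 0.0855% and 9.36% for PU.1, and, for the mark H3K4me2, 0.15% and 8.94%. STAT6 at Flt1 −34138 was 9.96 and 10.6 tags at 24 h in Egr2 fl/fl and 4.12 and 4.51 in LyzM-Cre Egr2 fl/fl (adjusted p 0.47). It rose with IL-4 in Egr2 fl/fl there (log2 fold 2.69, adjusted p 0.025), as it did at Hbegf 43256 (2.57, adjusted p 0.0065), against 11.8% of all sites, and both calls were lost after median-ratio scaling. H3K4me2 at Hbegf 18401 was higher with IL-4 in Egr2 fl/fl (1.19, adjusted p 0.042) and in LyzM-Cre Egr2 fl/fl (1.51, adjusted p 0.021), against 8.06% and 1.13% of all sites higher and 0.15% and 0.0214% lower. Pol II had 1 library in each group and was not tested. At Flt1 −34138 it was 0.83 tags basally and 10.2 at 24 h in Egr2 fl/fl, and 0 and 11.98 in LyzM-Cre Egr2 fl/fl.

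**Figure D5:**
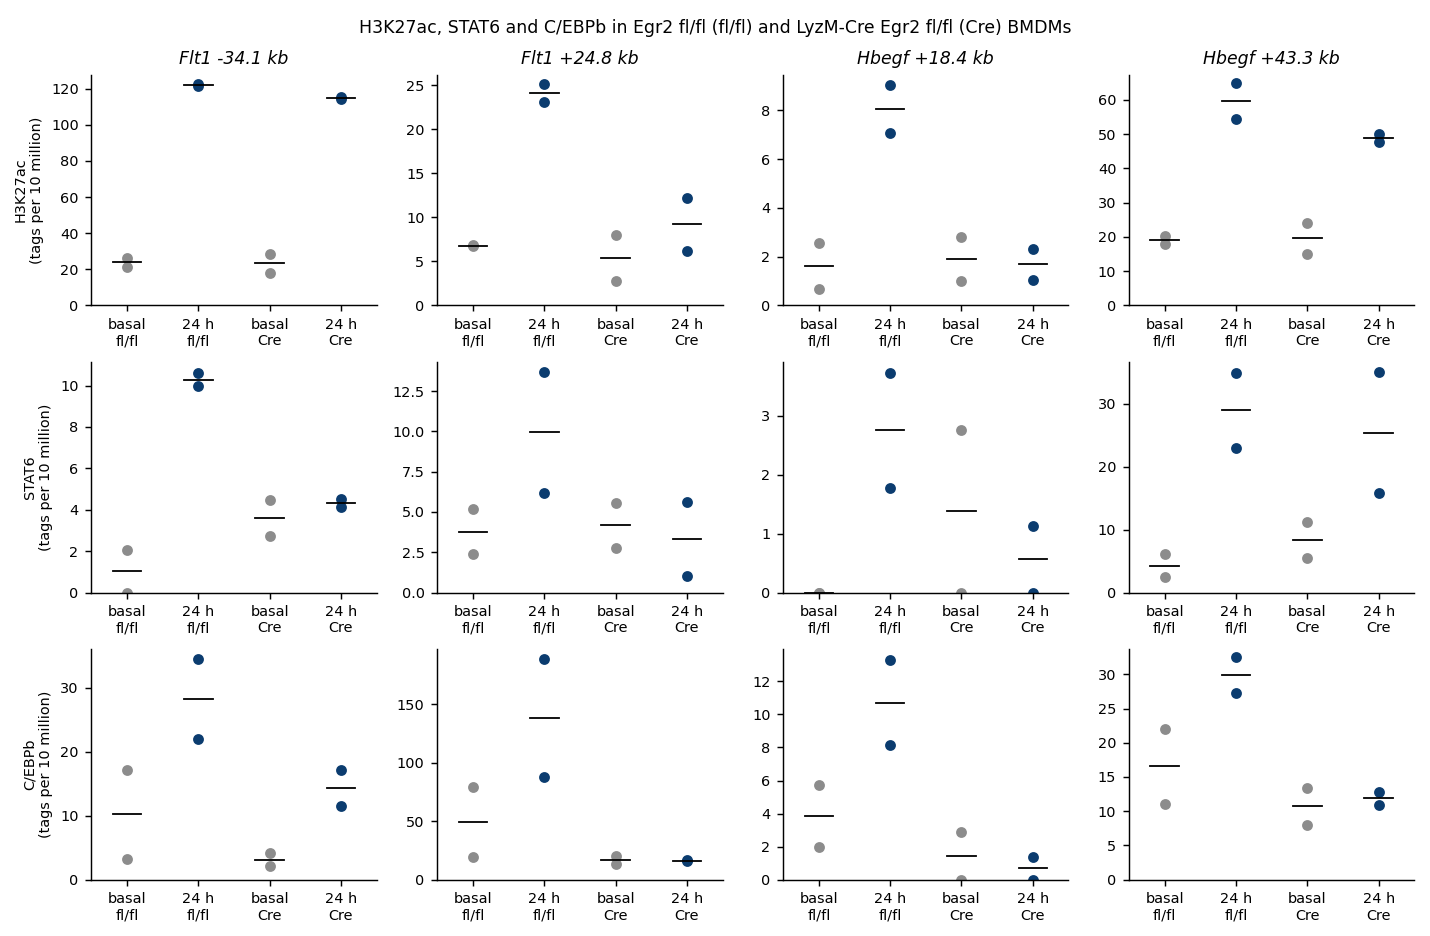
H3K27ac, STAT6 and C/EBPb, in tags per 10000000, at Flt1 −34138, Flt1 24774, Hbegf 18401 and Hbegf 43256 (titles in kb) in Egr2 fl/fl and LyzM-Cre Egr2 fl/fl BMDMs, basally and at 24 h. Points are libraries and bars are means of 2. H3K27ac at Flt1 −34138 rises with IL-4 in both genotypes, and C/EBPb at Flt1 24774 is 189 and 87.7 in Egr2 fl/fl at 24 h against 15.6 and 17.2.

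The other genes of these pathways were read at their starts in the same time course, from lists of 15 ligands, 14 receptors and 11 binding proteins, processing enzymes and inhibitors. Of these, 10 ligands, 13 receptors and 7 of the third list had a region. Among ligands, Hgf was lower at 1 h and Vegfc, a ligand for lymphatic vessels, was higher at 6 h. Vegfc had mean H3K27ac of 10.0 tags basally, 40.2 at 1 h, 57.7 at 6 h and 36 at 24 h. Among receptors, only Nrp1, a VEGF co-receptor, passed, with means of 802 tags basally and 163 at 1 h. In the third list, Thbs1 was lower at 1 h and 6 h, Lrrc32 was higher at 6 h and 24 h, and Igfbp4 was lower at 24 h. Lrrc32, which tethers latent TGF-b to the cell surface, held 0.68 and 4.99 tags basally and 15.8 and 33.1 at 24 h (log2 fold 2.91, adjusted p 0.035), and it was the single gene of the 3 lists to pass in a strain, in BALB (2.24, adjusted p 0.012). Igfbp4, an IGF-binding protein, had 119 and 354 tags basally and 13.6 and 40.0 at 24 h (−3.07, adjusted p 0.028). Of the 30 genes with a region, none was called higher and 3 lower at 1 h, against 1.37% and 8.36% of all regions, 2 higher and 1 lower at 6 h, against 2.67% and 2.46%, and 1 higher and 1 lower at 24 h, against 1.13% and 0.327%.

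Promoters with the H3K27ac profile most like each member were ranked by Pearson's r over the 8 libraries of the C57 time course among 16355 promoters, as a description. The nearest was Gm4262 for Igf1 (r 0.987), Msx3 for Hbegf (0.985), Atf2 for Vegfa (0.993), Fastkd1 for Pdgfa (0.973), Gas6 for Pdgfb (0.991), Bid for Tgfb1 (0.995) and Pdia5 for Flt1 (0.942). The second for Pdgfb was Cd14 (0.989), which encodes the co-receptor for lipopolysaccharide. The points share libraries and their depth, and the best match of Flt1 was the lowest of the 7.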

How the data were processed

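ChIP-seq signal was read in 155 libraries of 9 tag tables, and 54 peak lists stood for groups. The 7 genes, the marker and pathway lists and the tests were chosen with earlier results of these data known. The named regions were the start region of each gene, its strongest distal region, the largest rise and fall of each strain, the top EGR2 site and the sites of the genotype tables. The authors aligned reads with bowtie2 to a genome of each strain, shifted positions to mm10 with MMARGE, and counted tags with HOMER in 1000 bp around open-chromatin centres (300 bp for factors). The deposited signal values are those tags scaled by the authors to 10000000 per library, a scaling that does not adjust for how many of a library's tags fall in regions. Multiplied back by the library total they gave whole numbers of reads, within 0.1 read, for 100% of 7268918 values. Peaks were called by the authors per replicate and kept where reproducible by IDR, and the deposited score of a peak was used only to shorten lists to equal length.

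Values were tested on log2(tags + 1) with limma 3.58.1 (trend) in R 4.3.3 over each whole table, unfiltered. A fold on this scale understates the change of low regions. Alternatives were a pseudocount of 5, a filter on low tags, median-ratio scaling, edgeR 4.0.16 and DESeq2 1.42.0 on recovered reads, a window of 25 kb, the nearest gene start, left-out libraries and the replicate number as a block. Deviations of same-numbered libraries correlated between basal and 24 h at 0.191 to 0.395 for Pol II in C57, 0.438 to 0.631 in PWK and 0.414 to 0.442 in SPRET, so the numbers were taken as pairs there. Replicate libraries differed by chi-square per degree of freedom of 1.51 to 19.9 in 99 comparisons, and none was identical. In simulated data with 200 regions changed 4-fold, limma recovered 1% at 24 h of the H3K27ac time course (77955 regions), 0% in the C57 strain table (67742), 41% in the Pol II time course (77955) and 98% between genotypes (4677). The tables held 4 columns that matched no sample, which were not used, and 12 input samples were not used. Sequences came from mm10 and from RefSeq. One of the marker genes and one of the sequences examined are not reported here.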

Additional observations from a re-analysis of the deposited data

Results flagged for a closer look

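Basal replicate 2 of C57 Pol II at the Flt1 start region, 171 bp from the start, held 12.84 tags, while the other 3 basal libraries held 2.5, 1.07 and 2.03. It stood apart by Dixon's criterion for a group of 4, the single such library among 14 groups examined, where chance marks about 1 in 20. The value lies below all 3 libraries at 24 h, the lowest of which was 53.7 tags.

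At the distal Pdgfb region, H3K4me3 moved in opposite directions in 2 strains. Every 24-hour library of SPRET lay above the basal ones (means 3.0 and 4.3 tags) and every one of PWK lay below (means 11.3 and 10.6). This was 1 of 56 combinations of region and mark examined between strains, the levels are low for this mark, and the difference between the strains was not tested.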

How the results depend on the processing

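Of 447 alternatives to a count of calls, 340 stayed within 1.5 times the count and 107 moved beyond it. Of 613 alternatives for a named region, 518 kept direction and side of the threshold, 35 turned, 27 lost a call and 33 gained one. Except where fewer libraries or another window made the difference by construction, the cause was not tested. With pairs of 2 libraries it was not settled whether the number marks a pair, so the replicate block is given here and not beside the results. Same-numbered libraries at basal and 24 h in the strains did deviate alike. Their correlations were 0.507 to 0.729 for H3K27ac, 0.211 to 0.470 for H3K4me2 and 0.515 to 0.732 for H3K4me3. For Pol II they were 0.390 and 0.464 in BALB and 0.561 in NOD. The Pol II libraries of C57, taken as pairs, had 0.191 to 0.395. These were lower than the correlations for H3K27ac and H3K4me3, whose libraries were not taken as pairs in the main tests. With the replicate block the calls in the 5 strains numbered 96 for H3K27ac (5 without it), 57 for Pol II (15), 29 for H3K4me2 (0) and 50 for H3K4me3 (0). In the time course it gave 32 at 1 h (7), 17 at 6 h (7) and 17 at 24 h (4) for H3K27ac, and 3 at 6 h (1) and 16 at 24 h (7) for Pol II. Same-numbered H3K27ac libraries there correlated with basal at 0.483 at 1 h, 0.036 at 6 h and 0.725 at 24 h. At 6 h the numbers thus showed little sign of marking pairs. Between genotypes the block gave 3 for H3K27ac and 1 for H3K4me2 (0 each). The shares of all regions called with the block are not given, so these counts are not read as a result about the members. No same-numbered libraries deviated in opposite directions by a correlation under −0.1.

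DESeq2 gave 21 calls for H3K27ac and 25 for Pol II in the strains, 9 for H3K4me3 (edgeR 9, a filter on low tags 5, a pseudocount of 5 and median-ratio scaling 1 each), 13 for H3K27ac and 11 for Pol II at 24 h, and 8 for Pol II at 6 h. Within 25 kb the strains held 3 H3K27ac and 9 Pol II calls, and with the nearest start required 3 in H3K27ac. At 1 h a filter gave 14 and median-ratio scaling 2. At 6 h a pseudocount of 5 gave 4, median-ratio scaling 2 and the nearest start 4, and at 24 h the nearest start gave 2. The Pol II call at 6 h went to 0 under a pseudocount of 5, a filter or the nearest start. H3K27ac between genotypes had 2 calls with a pseudocount of 5 and 1 each with median-ratio scaling, edgeR and DESeq2, H3K4me2 1 each with a pseudocount of 5 and edgeR, and the factors 1 with a filter or edgeR and 0 with DESeq2. The fold rule gave 81 at a fold of 2 (40 at 2.5), and with Pol II 15 with a pseudocount of 5 and 17 within 25 kb (27). Peaks gained went to 34 for EGR2, 55 for STAT6, 27 for PPARg and 20 for C/EBPb with lists of equal length, and to 55, 56, 79 and, for PU.1, 35 within 25 kb.

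Leaving out 1 library at a time gave 4 to 8 H3K27ac, 9 to 16 Pol II and 0 to 53 H3K4me2 calls in the strains, 0 to 38 at 1 h, 0 to 9 at 6 h and 0 to 8 at 24 h for H3K27ac, 0 to 8 at 6 h and 0 to 9 at 24 h for Pol II, 0 to 9 for EGR2, 0 to 2 for H3K27ac between genotypes and 0 to 3 for the factors. The count was 0 without basal replicate 2 and 38 without 1-hour replicate 1 at 1 h, 0 without 6-hour replicate 2 at 6 h, and 0 without 24-hour replicate 1 at 24 h in both marks.

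Directions turned where the fold was small. For H3K27ac at 24 h, Igf1 −59 went from −0.13 to 0.19 with median-ratio scaling and 0.13 with DESeq2 (−0.47 to 0.22 with libraries left out), and Igf1 1985 from −0.18 to 0.13 and 0.14 (−0.42 to 0.053). Pol II at Pdgfa −277 went from 0.07 to −0.033 with the replicate block (−0.19 to 0.25), and at Tgfb1 −95 it was −0.60 to 0.019 with libraries left out. For EGR2, median-ratio scaling and DESeq2 gave −0.40 and −0.39 at Vegfa −41731 (−0.13 to 0.64), −0.030 and −0.059 at Pdgfa −852, −0.51 and −0.53 at Pdgfb −6 (−0.23 to 0.50) and −0.0041 and −0.037 at Flt1 −22186, and DESeq2 gave −0.20 at Igf1 −41251 (−0.40 to 1.80). Between genotypes, both gave higher H3K27ac in LyzM-Cre Egr2 fl/fl at Hbegf 43256 (0.25 and 0.24), Flt1 −34138 (0.45 and 0.45) and Tgfb1 −36977 (0.44 and 0.43, and −0.30 to 0.11 with libraries left out). Ranges with libraries left out also spanned 0 at Hbegf −32841 (−1.39 to 0.23) and Hbegf −45585 (−0.18 to 0.42).

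Most groups held 2 libraries, and limma recovered 1% of simulated 4-fold changes at 24 h of the H3K27ac time course. A region without a call is not shown to be unchanged, and 1 tag at low regions is 1 or a few reads. The Egr2 genotypes were read at EGR2-induced sites alone. Distance does not show which gene a region acts on, and RNA was not analysed here.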
